A study of Arabidopsis thaliana with 6 samples.

Results

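Catalases, ascorbate peroxidases and superoxide dismutases are the enzymes that remove superoxide and hydrogen peroxide from plant cells. This account follows 10 of their genes, out of 27416 loci measured, in Arabidopsis thaliana plants that the labels give as a ucp1 ucp3 double mutant, and in wild-type plants. The 10 loci were taken by name from the annotation and not by a cut on their measured levels, but with earlier results of these data known. They are the catalase genes CAT1 (AT1G20630, chromosome 1), CAT2 (AT4G35090, chromosome 4) and CAT3 (AT1G20620, chromosome 1), the ascorbate peroxidase genes APX1 (AT1G07890, chromosome 1), sAPX (AT4G08390, chromosome 4) and tAPX (AT1G77490, chromosome 1), and the superoxide dismutase genes CSD1 (AT1G08830, chromosome 1), CSD2 (AT2G28190, chromosome 2), FSD1 (AT4G25100, chromosome 4) and MSD1 (AT3G10920, chromosome 3).

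Polyadenylated RNA was sequenced from vegetative tissue of plants of the Columbia ecotype, 21 days old and kept on MS medium. The double mutant, which per its label carries mutations in both UCP1 and UCP3, and the wild-type were each sampled in 3 libraries given as biological replicates. The mutant libraries are called the labelled mutants below. The mutant alleles, the number of plants in a library and the hour of harvest are not given in the sources used here. UCP1 and UCP3 encode carriers of the inner mitochondrial membrane of the uncoupling protein family, and the comparison asks which transcripts of the vegetative plant differ when both genes are mutated.

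Superoxide dismutases turn superoxide into oxygen and hydrogen peroxide. Catalases in peroxisomes break hydrogen peroxide down directly, while ascorbate peroxidases in the cytosol and chloroplast reduce it at the expense of ascorbate, which the ascorbate-glutathione cycle regenerates. Plants use dismutases with different metals: when copper is scarce, the factor SPL7 raises miR398, which lowers the copper/zinc enzymes CSD1 and CSD2 and their copper chaperone CCS, and the iron enzyme FSD1 takes their place in the chloroplast.

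The pairing of miR398 with its targets is shown here because CSD1, CSD2 and CCS were all low in 1 wild-type library, as described further below. The mature miRNAs and the sites were read from RefSeq TAIR10.1, 5′ to 3′. In the miRNAs, bases 2 to 8 (the seed) are in capitals, and all annotated MIR398 genes share this seed. In the target sites, capitals mark the bases that lie opposite the seed, and in CSD2 and COX5B-1 also 1 bulged base.
miR398a (chromosome 2): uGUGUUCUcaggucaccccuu
miR398b and miR398c (chromosome 5): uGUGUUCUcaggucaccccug
CSD1 site (5′ UTR): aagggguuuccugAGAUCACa
CSD2 site (coding): ugcgggugaccugGGAAACAUa
CCS site (coding): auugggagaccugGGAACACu
COX5B-1 site (5′ UTR): aaggugugaccugAGAAUCACa

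The sites were found by a search for the best pairing in each annotated mRNA, counting 1 for a mismatch or a bulged base and 0.5 for a G:U pair. The CSD1 site scored 3, and 4 of 27556 loci (0.0145%, CSD1 included) held a site as good or better. The CSD2 site, with 1 bulged base, scored 4, and 38 loci (0.138%) held a site as good or better. The CCS site scored 4.5 (141 loci, 0.512%, counted in the same way). The site in COX5B-1, which encodes a subunit of mitochondrial cytochrome c oxidase, scored 2 with 1 bulged base (2 loci, 0.00726%). The best match in FSD1 scored 5.5, which 5.57% of loci reached. These matches describe the letters of the mRNAs, and the MIR398 loci themselves are not analysed here.

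Between 1183612 and 11296137 reads per library were assigned to genes, and the 10 genes had between 98 and 34821 reads in a library. The shallowest library, replicate 3 of the labelled mutants, also lay apart on the first principal component of log2 levels, at -65.7 against -6.28 to 28.6 in the other 5. UCP1 and UCP3 transcripts were present in all libraries. UCP1 stood at 67.2, 46.6 and 53.3 CPM in the labelled mutants and 69.2, 67.3 and 75.3 CPM in wild-type, and UCP3 at 8.68, 10.2 and 10.8 CPM in the labelled mutants and 12.3, 16.1 and 13.0 CPM in wild-type. Both were lower in the labelled mutants, with log2 fold changes of -0.35 for UCP1 and -0.49 for UCP3. Their groups did not overlap, as in 23.6% of all tested genes, and for UCP1 the gap was narrow. Neither passed the test (edgeR adjusted p = 0.226 and 0.224), so these transcripts do not check the labels, and every direction given here rests on them. Levels in CPM are read numbers scaled to a common library size with TMM factors. Nothing beyond the label says how replicates were separated, so p-values measure the spread between these samples, which may be technical.

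The tissue label was checked against marker genes. The 4 leaf markers (RBCS1A, LHCB1.3, RCA and PSAD1) summed to between 32400 and 41000 CPM in the labelled mutants and between 27600 and 29900 CPM in wild-type. All 6 root markers were expressed, with sums of 1500 to 2010 CPM in the labelled mutants and 1720 to 2460 CPM in wild-type. Most of this sum was PYK10, with means of 1730 CPM in the labelled mutants and 1960 CPM in wild-type. Its log2 fold change, ucp1 ucp3 over wild-type, was -0.18 (edgeR adjusted p = 0.626). Of the 6 root markers, 5 had estimates above 0, with a median of 0.34 and a highest value of 0.81, and 0 passed the test. The 4 flower markers summed to 12.3 to 16.2 CPM in the labelled mutants and 13.1 to 14.6 CPM in wild-type, and 1 of them was high enough to test. In such mixed tissue, fewer cells of a type and less RNA per cell cannot be told apart.

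None of the 10 genes passed the test across all genes (edgeR quasi-likelihood test, Benjamini-Hochberg adjusted p under 0.05), which called 220 of 17415 tested genes, or 1.26%. At an unadjusted p under 0.05, 1 of the 10 (CAT3) and 2857 of the 17415 tested genes were found. DESeq2 called 1 of the 10, CAT3, and 384 of the 17415 tested genes. The median log2 fold change of the 10, ucp1 ucp3 over wild-type, was 0.12, with 7 estimates above 0, and that of all tested genes was -0.002. The ranges of the groups were separate in 2 of the 10 genes, CAT3 and tAPX, and in 23.6% of the 17415 genes.

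**Figure D1:**
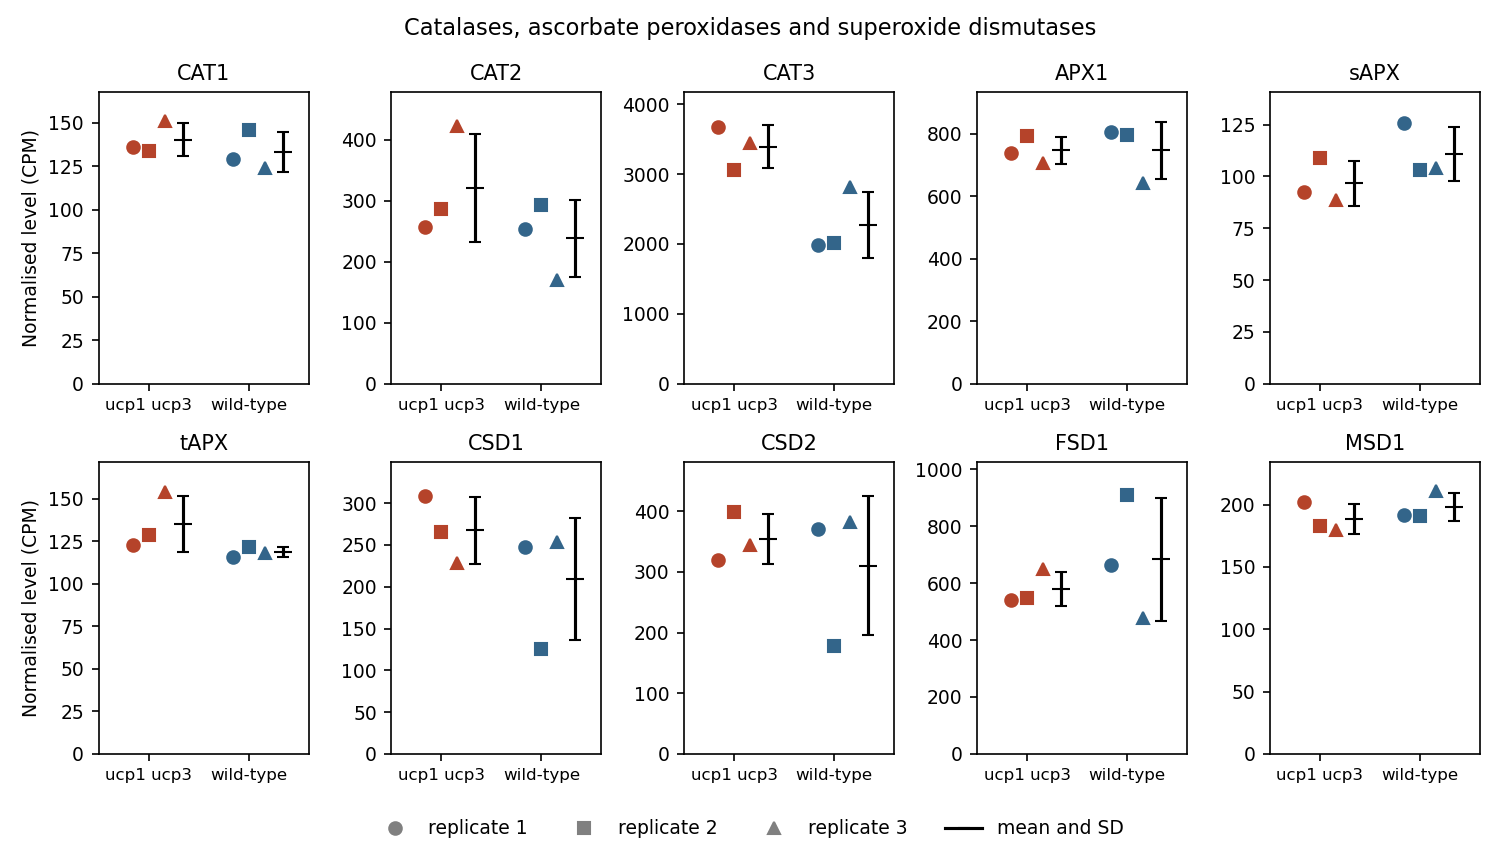
Normalised level in CPM of each of the 10 genes (vertical axes, each from 0) in the 3 libraries labelled ucp1 ucp3 and the 3 wild-type libraries, with the mean and SD of each group. CAT3 lies between 3060 and 3670 CPM in the labelled mutants and between 1980 and 2820 CPM in wild-type, and wild-type replicate 2 stands low in CSD1 and CSD2 and high in FSD1.

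CAT3, one of the catalases of the leaf and a gene whose transcript peaks late in the day, was the gene of the 10 with the smallest p. It had 3670, 3060 and 3450 CPM in the labelled mutants and 1980, 2020 and 2820 CPM in wild-type. The lowest labelled mutant library therefore lay above the highest wild-type library. The means were 3390 ± 310 CPM in the labelled mutants and 2270 ± 472 CPM in wild-type (SD, n = 3 each). The log2 fold change was 0.58 ± 0.15 (SE), or 1.49-fold with a 95% interval of 1.19 to 1.87. Its unadjusted p of 0.0017 ranked 393 among all genes, and with an edgeR adjusted p of 0.0751 it missed the threshold.

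The call on CAT3 depended on the fit. In all 15 alternative fits CAT3 was higher in the labelled mutants, with log2 fold changes of 0.49 to 0.76 and adjusted p-values of 0.00542 to 0.281; with separate ranges, leaving out a library cannot turn the direction. It passed the threshold in 4 of them: with DESeq2 (adjusted p = 0.00542), with edgeR and no filter on low counts (adjusted p = 0.0276), with edgeR on counts thinned to the shallowest library (adjusted p = 0.0452), and with edgeR without wild-type replicate 3 (log2 fold change 0.76, adjusted p = 0.0231). Wild-type replicate 3 held the highest CAT3 level of its group. The 4 fits in which CAT3 passed called 384, 490, 326 and 144 of all genes, in the order above. The main fit called 220.

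Leaf markers and clock genes are given beside CAT3, because it is a leaf gene with a daily rhythm. Of the 4 leaf markers, 1 passed the test: LHCB1.3, a light-harvesting protein gene, was higher in the labelled mutants, at 18300 ± 2750 CPM against 11000 ± 672 CPM in wild-type (SD, n = 3 each; log2 fold change 0.72, edgeR adjusted p = 0.0320). That call was lost without 5 of the 6 libraries, each left out in turn, with log2 fold changes of 0.65 to 0.77 and adjusted p-values of up to 0.140, and with limma on log2(TPM + 1) (0.61, adjusted p = 0.0774). Most of the difference in the leaf marker sum came from LHCB1.3. RBCS1A, a Rubisco small subunit gene, averaged 12100 ± 864 CPM in the labelled mutants and 11900 ± 458 CPM in wild-type (SD, n = 3 each; log2 fold change 0.03, edgeR adjusted p = 0.960), and its estimate changed sign with the scaling. RCA, the Rubisco activase gene, had an estimate of 0.30 (edgeR adjusted p = 0.319) and PSAD1, a photosystem I subunit gene, 0.27 (edgeR adjusted p = 0.358) on the log2 scale.

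Of 8 clock genes, 0 passed the test and 5 had estimates above 0, over a range of -0.25 to 0.77 and with a median of 0.13. The evening clock gene TOC1 had 216, 209 and 235 CPM in the labelled mutants and 174, 197 and 146 CPM in wild-type (log2 fold change 0.35, edgeR adjusted p = 0.175), while the morning clock gene LHY had 3.43, 4.57 and 11.7 CPM in the labelled mutants and 3.07, 2.22 and 3.49 CPM in wild-type (edgeR adjusted p = 0.365). ELF4, a further evening clock gene, had 73.3, 70.3 and 68.6 CPM in the labelled mutants and 78.0, 102 and 73.7 CPM in wild-type (log2 fold change -0.25, edgeR adjusted p = 0.379). Of the 8, the groups did not overlap in TOC1 and ELF4 alone, against 23.6% of all tested genes. The estimates of TOC1 and ELF4 lay on opposite sides of 0, and ELF4 was named after its values were seen. The part of leaf content or of the hour of harvest in the CAT3 values was not tested.

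CAT2, the main photorespiratory catalase of leaves, varied within both groups. It had 256, 286 and 422 CPM in the labelled mutants and 253, 293 and 169 CPM in wild-type, so that the groups overlapped. The log2 fold change was 0.41 ± 0.24 (95% interval -0.14 to 0.96, edgeR adjusted p = 0.451). Leaving out either replicate 3 of the labelled mutants or replicate 3 of wild-type lowered the estimate to 0.20 or 0.21. The 2 glycolate oxidase genes that feed CAT2 with photorespiratory hydrogen peroxide were close to each other, with log2 fold changes of 0.19 for GOX1 (edgeR adjusted p = 0.536) and 0.21 for GOX2 (edgeR adjusted p = 0.421). Among fits with 1 library left out they were lowest where CAT2 was, at 0.08 for GOX1 and 0.14 for GOX2 without replicate 3 of the labelled mutants, and at 0.09 for GOX1 and 0.14 for GOX2 without wild-type replicate 3.

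CAT1, the third catalase gene and the one best known from seeds and pollen, had 136, 134 and 151 CPM in the labelled mutants and 129, 146 and 124 CPM in wild-type. The levels overlapped throughout, and the log2 fold change was 0.06 ± 0.11 (95% interval -0.17 to 0.30, edgeR adjusted p = 0.845). The 3 catalases together had 4070, 3480 and 4020 CPM in the labelled mutants and 2370, 2460 and 3110 CPM in wild-type, and most of this sum was CAT3. Of the genes known to act on catalase protein, NCA1, a chaperone needed for catalase activity, had an estimated log2 change of -0.09 (edgeR adjusted p = 0.761) and LSD1, a zinc finger protein that binds catalases, one of 0.28 (edgeR adjusted p = 0.370).

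**Figure D2:**
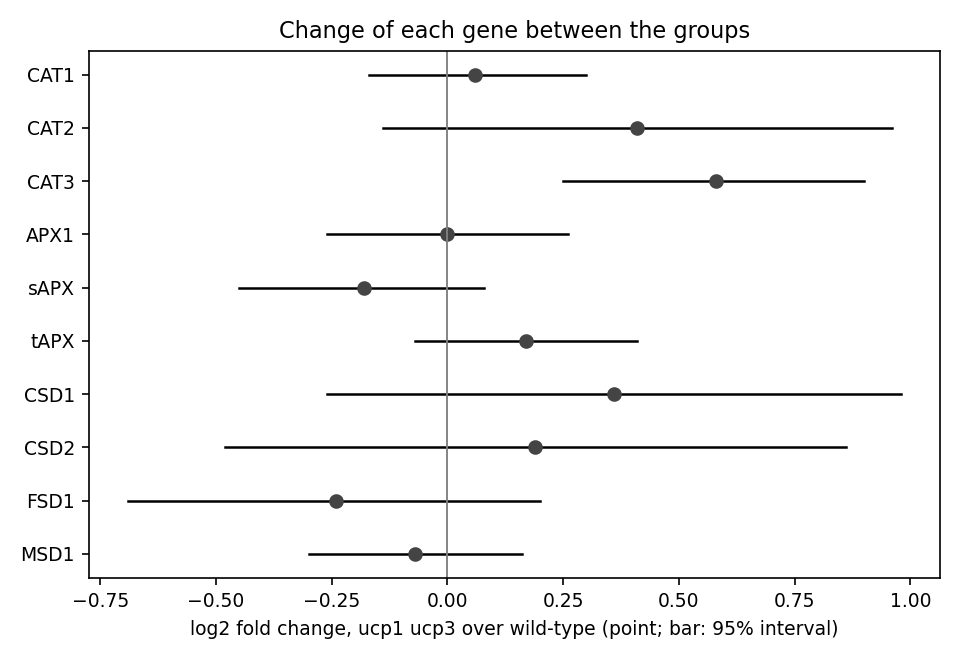
Estimated log2 fold change of each gene, ucp1 ucp3 over wild-type (horizontal axis), with its 95% interval as a bar. The interval of CAT3 runs from 0.25 to 0.90 and is the one that does not reach 0, and those of CSD1, CSD2 and CAT2 are the widest.

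APX1, the cytosolic ascorbate peroxidase, was nearly level between the groups. It had 740, 794 and 707 CPM in the labelled mutants and 805, 796 and 642 CPM in wild-type. Its log2 fold change was 0.00 ± 0.12 (95% interval -0.26 to 0.26, edgeR adjusted p = 1), which leaves room for a difference of up to that size either way.

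The chloroplast enzymes sAPX, found in the stroma, and tAPX, bound to thylakoids, had estimates on opposite sides of 0. sAPX had 92.5, 109 and 88.5 CPM in the labelled mutants and 126, 103 and 104 CPM in wild-type. Its log2 fold change was -0.18 ± 0.12 (95% interval -0.45 to 0.08, edgeR adjusted p = 0.506). tAPX had 123, 129 and 154 CPM in the labelled mutants and 116, 122 and 118 CPM in wild-type. The tAPX groups were separated by a narrow gap, and the log2 fold change was 0.17 ± 0.11 (95% interval -0.07 to 0.41, edgeR adjusted p = 0.497). The TPM ratio of sAPX to tAPX was 0.800, 0.896 and 0.607 in the labelled mutants and 1.15, 0.895 and 0.939 in wild-type, so the ranges just overlapped. The 3 ascorbate peroxidases summed to 955, 1030 and 950 CPM in the labelled mutants and 1050, 1020 and 864 CPM in wild-type.

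MSD1 is the manganese dismutase of mitochondria, the organelle of the uncoupling proteins. It had 202, 183 and 180 CPM in the labelled mutants and 192, 191 and 211 CPM in wild-type. The groups overlapped, and the log2 fold change was -0.07 ± 0.11 (95% interval -0.30 to 0.16, edgeR adjusted p = 0.821).

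CSD1, the cytosolic copper/zinc dismutase, had 308, 266 and 228 CPM in the labelled mutants and 248, 125 and 254 CPM in wild-type. One wild-type library, replicate 2, was low, and the other 2 lay within the range of the labelled mutants. The log2 fold change was 0.36 ± 0.27 (95% interval -0.26 to 0.98, edgeR adjusted p = 0.573). Without wild-type replicate 2 it was 0.10.

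CSD2, the chloroplast copper/zinc dismutase, had 319, 399 and 344 CPM in the labelled mutants and 370, 178 and 382 CPM in wild-type. The same wild-type library was low, and the log2 fold change was 0.19 ± 0.28 (95% interval -0.48 to 0.86, edgeR adjusted p = 0.812). Without wild-type replicate 2 the estimate changed sign, to -0.08.

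FSD1, the iron dismutase, had 542, 547 and 650 CPM in the labelled mutants and 665, 909 and 478 CPM in wild-type. Here wild-type replicate 2 was the highest of the 6 libraries. The log2 fold change was -0.24 ± 0.20 (95% interval -0.69 to 0.20, edgeR adjusted p = 0.611), and 0.01 without wild-type replicate 2. The sum over the 4 dismutases varied less than its parts, with 1370, 1390 and 1400 CPM in the labelled mutants and 1470, 1400 and 1330 CPM in wild-type.

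**Figure D3:**
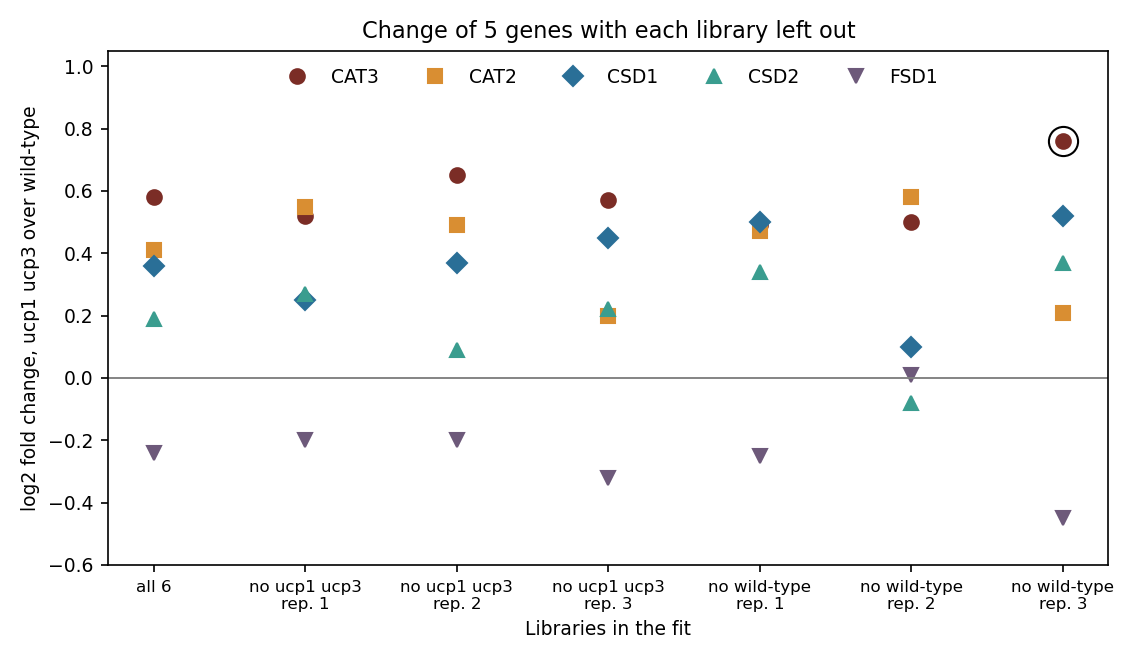
Log2 fold change, ucp1 ucp3 over wild-type (vertical axis), of CAT3, CAT2, CSD1, CSD2 and FSD1 with all 6 libraries and with each library left out in turn (horizontal axis); the ring marks the fit in which CAT3 passed the threshold. Without wild-type replicate 2 the estimates of CSD1, CSD2 and FSD1 lie between -0.08 and 0.10.

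The copper-linked genes were therefore followed library by library. In wild-type replicate 2, the log2 level minus the mean of the other 5 libraries was -1.05 for CSD1, -1.02 for CSD2 and -0.99 for CCS, the copper chaperone that loads both. Of all tested genes, 0.683%, 0.724% and 0.856% deviated as far down in that library as CSD1, CSD2 and CCS. In the same library FSD1 stood at 0.67 above the mean of the others (3.15% of genes were as high), the copper transporter gene COPT2 at 1.11 (0.546%), the copper chaperone gene CCH at 0.48 (6.77%) and FRO4, a ferric and cupric reductase gene, at 2.00 (0.0459%). COPT2, CCH and COX5B-1 were chosen after their values were seen. Wild-type replicate 2 was itself singled out by the values of CSD1, CSD2 and FSD1, so these shares of genes describe it and test nothing.

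Of 16 tested dismutase and copper genes, 5 (CSD1, CSD2, CCS, SPL7 and PETE2) were lowest and 4 (FSD1, COPT2, CCH and FRO4) were highest in wild-type replicate 2. This library was singled out after the values of CSD1, CSD2 and FSD1 were seen, so these counts describe it and test nothing. SPL7 and PETE2 each stood at only -0.17 in wild-type replicate 2, where 21.2% and 21.4% of all tested genes were as low. COX5B-1, which had the best miR398 match of the sites shown, stood at -0.14 in that library. MSD1, which uses manganese, stood at -0.02. The pattern is a description of 1 wild-type library, and its source was not tested. The deposited values hold no MIR398 locus, and any part of miR398 in the pattern was not tested.

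**Figure D4:**
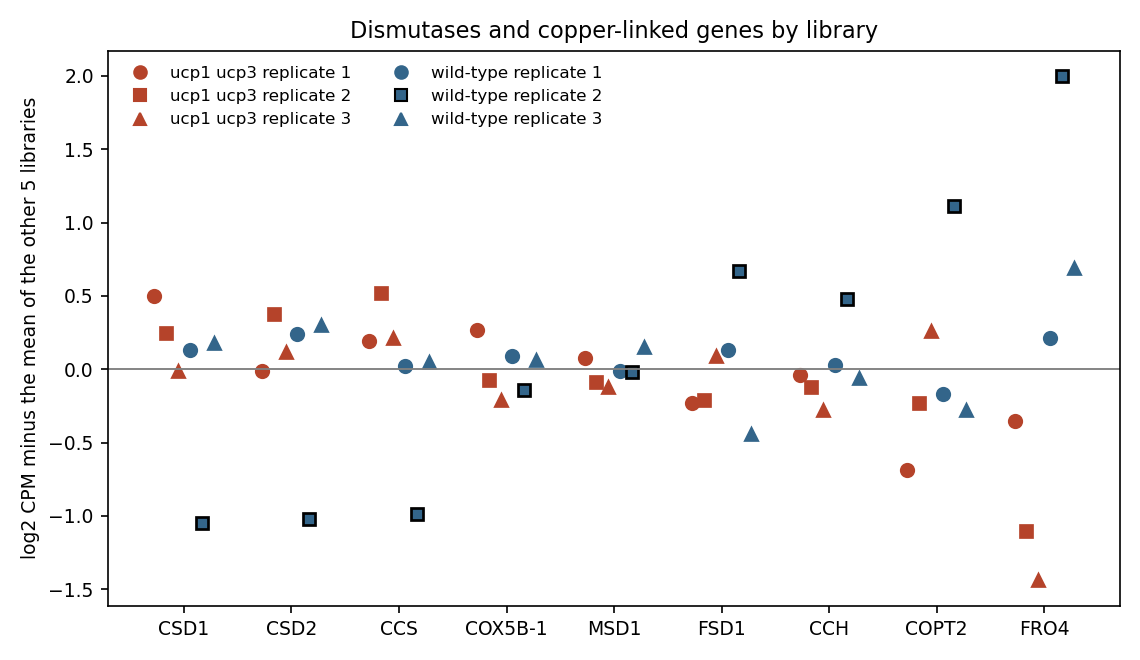
Log2 CPM of each library minus the mean of the other 5 libraries (vertical axis), with wild-type replicate 2 outlined in black. The horizontal axis holds a part of the 16 tested dismutase and copper genes. COPT2, CCH and COX5B-1 were chosen after their values were seen. Wild-type replicate 2 lies near -1 for CSD1, CSD2 and CCS, near 0 for MSD1 and COX5B-1, and between 0.48 and 2.00 for FSD1, CCH, COPT2 and FRO4. SPL7, COPT1, ATX1, PETE1, PETE2, PAA1 and PAA2 are not shown and lie between -0.29 and 0.02 in that library.

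Set against the other 2 wild-type libraries alone, wild-type replicate 2 had 0.499 times their mean CPM of CSD1, 0.473 times that of CSD2, 0.554 times that of CCS, 1.59 times that of FSD1, 2.22 times that of COPT2 and 2.46 times that of FRO4. The TPM ratio of CSD2 to FSD1, copper against iron enzyme of the chloroplast, was 0.690, 0.856 and 0.620 in the labelled mutants and 0.653, 0.231 and 0.940 in wild-type. Wild-type replicate 2 was thus the lowest of all, and the 3 labelled mutants lay between the other 2 wild-type libraries except for replicate 3, which was slightly below both.

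Between the groups, no copper-linked gene passed the test (0 of 12 tested). Of the 12, groups were separate in 4 genes higher in the labelled mutants (CCS, COPT1, PETE1, PETE2) and 1 lower (FRO4). Over all tested genes the groups were separate in 23.6%. CCS had 92.1, 112 and 93.0 CPM in the labelled mutants and 83.3, 46.5 and 84.8 CPM in wild-type, groups that did not overlap. The CCS log2 fold change was 0.47 ± 0.20 (edgeR adjusted p = 0.285), and 0.25 without wild-type replicate 2. COPT1, the copper importer of the plasma membrane, had 47.8, 40.4 and 62.3 CPM in the labelled mutants and 29.5, 33.2 and 30.4 CPM in wild-type. The COPT1 groups did not overlap, and the log2 fold change was 0.61 ± 0.15 (edgeR adjusted p = 0.0636). COPT1 passed the threshold with DESeq2 (adjusted p = 0.0376), with edgeR and no filter (adjusted p = 0.0255) and with edgeR without replicate 2 of the labelled mutants (adjusted p = 0.0203), over a range of adjusted p of up to 0.222.

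FRO4 had 5.26, 3.34 and 2.71 CPM in the labelled mutants and 7.37, 21.1 and 9.76 CPM in wild-type. Its log2 fold change was -1.67 ± 0.42 (edgeR adjusted p = 0.0856), and -1.13 without wild-type replicate 2. It passed the threshold with edgeR without wild-type replicate 1 (adjusted p = 0.0439). Its level is uncertain because it had 3 reads in replicate 3 of the labelled mutants, the floor of 3 counts, and 23 to 76 elsewhere. Further, 12.8% of its 31-base words are shared with the neighbouring reductase gene FRO5. FRO5 had 0, 0 and 0 reads in the labelled mutants and 6, 11 and 17 reads in wild-type, too low for the main test. In alternative fits edgeR called FRO5 with no filter, without replicate 2 of the labelled mutants, without their replicate 3, and without wild-type replicate 1. PETE1, one of the plastocyanins that carry copper in photosynthesis, had 157, 141 and 202 CPM in the labelled mutants and 132, 118 and 106 CPM in wild-type (log2 fold change 0.46 ± 0.14, edgeR adjusted p = 0.105). PETE1 passed the threshold with edgeR on thinned counts (0.62, adjusted p = 0.0318). It also passed with edgeR without replicate 2 of the labelled mutants (0.57, adjusted p = 0.0498). Other alternative fits gave adjusted p-values of up to 0.291.

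Per transcript length, CAT3 was the most abundant of the 10 genes, at 2000 ± 98.1 TPM in the labelled mutants and 1430 ± 274 TPM in wild-type (SD, n = 3 each). APX1 came next, at 786 ± 72.9 TPM in the labelled mutants and 844 ± 108 TPM in wild-type, and then FSD1, at 627 ± 63.2 TPM in the labelled mutants and 797 ± 267 TPM in wild-type. CSD2 (451 TPM in the labelled mutants, 421 TPM in wild-type), CSD1 (384 and 323 TPM, groups in the same order) and MSD1 (222 and 251 TPM) followed. CAT2 had 186 TPM in the labelled mutants and 147 TPM in wild-type, and tAPX, sAPX and CAT1 had means under 100 TPM in both groups.

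Each gene in this order stood above its next neighbour in 5 or 6 of the 6 libraries, except that sAPX stood above CAT1 in 3. For sAPX the means were 73.5 ± 11.6 TPM in the labelled mutants and 89.8 ± 10.4 TPM in wild-type, and for CAT1 they were 77.1 ± 4.79 TPM in the labelled mutants and 78.2 ± 7.94 TPM in wild-type, so these neighbours did not differ beyond their spread. CAT3 made up 90.7%, 88.3% and 86.1% of catalase TPM in the labelled mutants and 84.3%, 82.7% and 90.9% in wild-type. FSD1 made up 35.1%, 34.9% and 41.9% of the TPM of the 4 dismutases in the labelled mutants and 40.6%, 60.8% and 31.9% in wild-type. APX1 held between 80.7% and 83.5% of the ascorbate peroxidase TPM in all 6 libraries.

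The balance of the 2 leaf catalases varied within both groups. The TPM ratio of CAT2 to CAT3 was 0.0686, 0.0918 and 0.120 in the labelled mutants and 0.125, 0.142 and 0.0591 in wild-type. The groups overlapped, because wild-type replicate 3 combined the lowest CAT2 with the highest CAT3 of its group. The mean log2 ratio was -3.46 ± 0.41 in the labelled mutants and -3.30 ± 0.68 in wild-type (SD, n = 3 each), a difference of -0.16. With 1 library left out the difference ranged from -0.55 without wild-type replicate 3 to 0.08 without wild-type replicate 2.

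The reads of these 10 loci were divided over 30 annotated transcript models, of which 21 passed the filter on low counts. None of the models passed the test (0% of 20008 tested models were called by edgeR, 2211 had an unadjusted p under 0.05, and DESeq2 called 607). CAT1, tAPX and CSD2 have a single model in these tables, and in CSD1 all reads were given to AT1G08830.1. The first CAT3 model, AT1G20620.1, carried 99.5% ± 0.426 of CAT3 reads in the labelled mutants and 98.6% ± 0.576 in wild-type (SD, n = 3 each; exact two-sided permutation test p = 0.1, the smallest that 3 against 3 can give). Its log2 fold change was 0.59 ± 0.17 (edgeR adjusted p = 0.362), and DESeq2 called it (adjusted p = 0.0113).

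APX1 was the one locus with 2 abundant models. AT1G07890.1 held 54.7%, 63.6% and 60.9% of APX1 reads in the labelled mutants and 58.4%, 63.3% and 53.7% in wild-type. AT1G07890.3 held 44.2%, 33.3% and 38.5% in the labelled mutants and 39.9%, 33.7% and 43.6% in wild-type. The shares overlapped between the groups, with means of 59.7% ± 4.55 in the labelled mutants and 58.5% ± 4.76 in wild-type for AT1G07890.1, and of 38.7% ± 5.43 in the labelled mutants and 39.1% ± 5.05 in wild-type for AT1G07890.3 (SD, n = 3 each). In FSD1, AT4G25100.2 held 99.4% ± 0.800 of reads in the labelled mutants and 98.2% ± 1.63 in wild-type, and in sAPX, AT4G08390.1 held 92.8% ± 6.25 in the labelled mutants and 90.9% ± 4.42 in wild-type (SD, n = 3 each). Model shares come from kallisto's assignment of reads that several models could share, and minor models had few or no reads in the shallowest library.

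**Figure D5:**
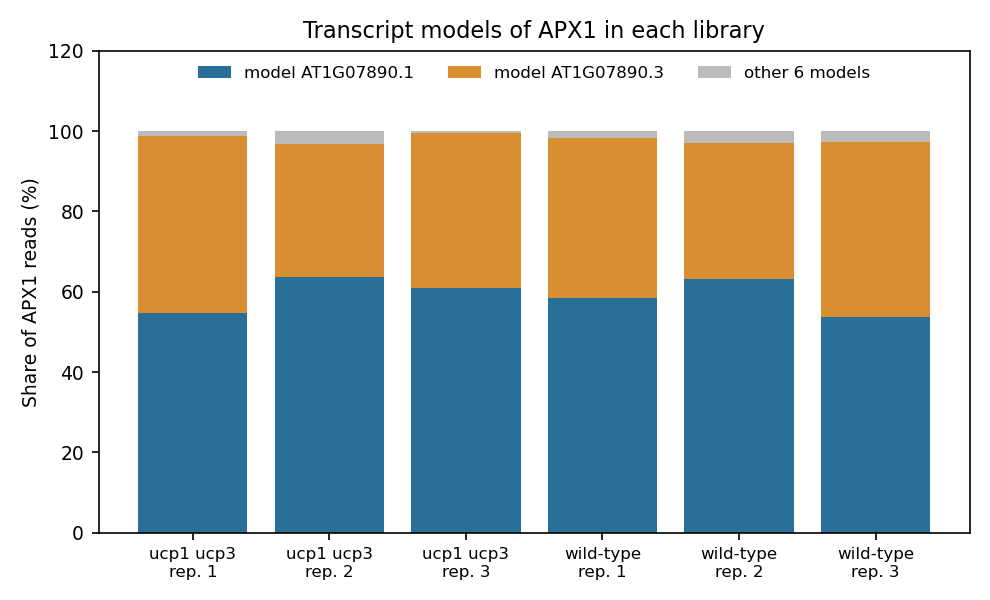
Share of APX1 reads in percent (vertical axis, from 0) given to each transcript model in the 3 libraries labelled ucp1 ucp3 and the 3 wild-type libraries. AT1G07890.1 holds 54.7% to 63.6% in the labelled mutants and 53.7% to 63.3% in wild-type, and the other 6 models together hold a few percent.

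The other genes of the pathway gave the same count. In 10 further lists (other dismutases and ascorbate peroxidases, catalase helpers, the ascorbate-glutathione cycle, ascorbate and glutathione synthesis, glutathione peroxidase-like enzymes, peroxiredoxins, copper genes, hydrogen peroxide responsive genes and glycolate oxidases), 65 of 68 genes were in the tables, 59 were tested and 0 passed edgeR's test in either direction. At an unadjusted p under 0.05, 6 were higher and 5 lower in the labelled mutants, a share close to the 16.4% found over all tested genes. DESeq2 called 1 of them (COPT1), and 384 of all genes. The median log2 fold change was 0.01. Their smallest adjusted p, 0.0636, was that of COPT1.

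Among the other dismutases (0 of 3 tested passed), FSD3, an iron dismutase of plastid nucleoids, had 28.6, 42.4 and 32.5 CPM in the labelled mutants and 52.0, 45.7 and 46.3 CPM in wild-type. The groups did not overlap, and the log2 fold change was -0.43 ± 0.15 (edgeR adjusted p = 0.165). It passed the threshold with edgeR without replicate 2 of the labelled mutants (log2 fold change -0.69, adjusted p = 0.0294). Without replicate 1 of the labelled mutants the estimate was -0.28 (adjusted p = 0.489), and the other 4 such fits gave adjusted p-values of 0.199 to 0.426. Its plastid partner FSD2 had an estimate of -0.20 on the log2 scale (edgeR adjusted p = 0.581) and CSD3, the peroxisomal copper/zinc enzyme, 0.02 (edgeR adjusted p = 0.978). Of the other ascorbate peroxidases (0 of 4 tested passed), the peroxisomal APX3 had an estimate of 0.10 on the log2 scale (edgeR adjusted p = 0.704).

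In the ascorbate-glutathione cycle, 0 of 10 tested genes passed, and 3 had an unadjusted p under 0.05, as did 16.4% of all tested genes. MDAR6, a monodehydroascorbate reductase of chloroplasts and mitochondria, had 191, 198 and 181 CPM in the labelled mutants and 244, 213 and 274 CPM in wild-type (log2 fold change -0.35 ± 0.12, edgeR adjusted p = 0.143). DHAR1, a dehydroascorbate reductase, had 230, 214 and 275 CPM in the labelled mutants and 170, 197 and 189 CPM in wild-type (0.36 ± 0.12, edgeR adjusted p = 0.150). Of the 10, the groups did not overlap in 1 gene that was higher (DHAR1) and 2 that were lower (MDAR6 and MDAR1). Over all tested genes the groups did not overlap in 23.6%. MDAR1 had an estimate of -0.10 on the log2 scale (edgeR adjusted p = 0.698). The estimates of MDAR6 and DHAR1, both ascorbate-recycling genes, lay on opposite sides of 0. MDAR3, a further monodehydroascorbate reductase, had an estimate of 0.48 ± 0.18 on the log2 scale (edgeR adjusted p = 0.195), with overlapping groups.

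Among 7 genes of ascorbate and glutathione synthesis, 0 passed. GLDH, the mitochondrial enzyme of the last step of ascorbate synthesis, had 25.6, 29.2 and 26.2 CPM in the labelled mutants and 33.6, 33.2 and 35.1 CPM in wild-type (log2 fold change -0.31 ± 0.13, edgeR adjusted p = 0.250). The groups did not overlap in 4 of the 7, against 23.6% of all tested genes, with 1 estimate above 0 and 3 below. They were GLDH, VTC1, an early enzyme of the pathway (log2 fold change 0.23, edgeR adjusted p = 0.312), GSH2, the glutathione synthetase (-0.21, edgeR adjusted p = 0.366), and VTC4, a phosphatase of ascorbate synthesis (-0.20, edgeR adjusted p = 0.519), which was named after its values were seen.

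Glutathione peroxidase-like enzymes (0 of 7 tested passed) included GPX1 of the chloroplast, with an estimate of 0.27 on the log2 scale (edgeR adjusted p = 0.326), and GPX8, with -0.29 (edgeR adjusted p = 0.413). Of 8 peroxiredoxins, thiol enzymes that also reduce hydrogen peroxide, 0 passed. The chloroplast 2CPB had 173, 195 and 209 CPM in the labelled mutants and 229, 229 and 218 CPM in wild-type (log2 fold change -0.24 ± 0.11, edgeR adjusted p = 0.292), and PRXIID, at 1.23 to 5.42 CPM in the 6 libraries, had 1.00 ± 0.45 (edgeR adjusted p = 0.280).

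Among genes known to respond to hydrogen peroxide or to mitochondrial stress, 0 of 4 tested passed. Of the 4 estimates, 3 lay above 0, with a median log2 fold change of 0.22, and most levels in this list were low. ZAT10, a zinc finger factor of oxidative stress, had 17.4, 20.5 and 28.0 CPM in the labelled mutants and 19.2, 21.3 and 44.6 CPM in wild-type (log2 fold change -0.47 ± 0.35, edgeR adjusted p = 0.575). The estimate rested on wild-type replicate 3 and was 0.02 without it. UPOX, an oxidative stress gene of mitochondria, had 3.88, 4.22 and 8.12 CPM in the labelled mutants and 2.66, 4.71 and 3.49 CPM in wild-type (0.36 ± 0.34, edgeR adjusted p = 0.659). HSFA2 and OXI1 were too low for the main test. HSFA2 had 0.457, 0.44 and 0 CPM in the labelled mutants and 1.23, 2.22 and 3.49 CPM in wild-type. It was called by edgeR with no filter on low counts. OXI1 had 3.66, 3.34 and 1.81 CPM in the labelled mutants and 1.84, 1.66 and 1.16 CPM in wild-type.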

How the data were processed

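Per the file headers, the authors deposited estimated counts and TPM values for 35386 transcript models in each of 6 libraries. Per the submitters' processing notes, kallisto, DESeq2 and the TAIR10 build were used, with no versions given, and the strand setting and transcript index are not given in the sources used here. Estimated counts were summed to 27416 loci and rounded. Names and sequences came from RefSeq TAIR10.1, to which 26719 loci matched. Its coordinates are not printed because the notes name another release.

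Genes and transcript models were tested with edgeR 4.0.16 (R 4.3.3, default filter, TMM, robust quasi-likelihood F test), adjusted by Benjamini-Hochberg over all tested features. Standard errors are the estimate over the square root of F. Deposited TPM served for levels between genes. The alternatives used DESeq2 1.42.0, limma 3.58.1 on voom and log2(TPM + 1) values, other scalings and filters, thinning, a replicate block and each library left out. The procedure was tested on simulated data.

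Library totals were 4484787, 11296137 and 1183612 reads in ucp1 ucp3 replicates 1 to 3 and 4813549, 3497081 and 4236329 in wild-type replicates 1 to 3. A floor of 3 counts equals 0.266 to 2.53 CPM and covers counting error only. Replicates differed by more than sampling noise (chi-square over degrees of freedom 2.41 to 6.38). The 10 loci shared at most 0.0911% of their 31-base words with other genes on the same strand, and CAT2 2.33% and CSD1 1.26% on the opposite strand. Members, lists and the naming rule (all 10 genes, UCP1, UCP3 and up to 4 genes of smallest p per list) were chosen with earlier results of these data known.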

Additional observations from a re-analysis of the deposited data

How the results depend on the processing

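Of 150 estimates of the 10 genes under 15 alternatives, 140 kept their direction, 10 changed sign and 4 newly passed the threshold, all of CAT3. Of 546 estimates of the other named genes, 531 kept their direction. One of the 10 genes was called with DESeq2, with no filter, with thinned counts and without wild-type replicate 3, so leaving out a library gave 0 to 1. Called genes (220, with 136 higher and 84 lower) numbered 384 with DESeq2 (234 higher, 150 lower), 490 with no filter (267 and 223), 16 with limma on log2(TPM + 1) (10 and 6), and 53 to 673 with a library left out (31 to 326 higher, 16 to 347 lower); thinned counts gave 134 lower. Without wild-type replicate 1 it was 53 and without ucp1 ucp3 replicate 2 it was 673. Other scavenging genes called were 1 with DESeq2 (COPT1), 3 with no filter (COPT1, FRO5, HSFA2), 1 with thinned counts (PETE1) and 0 to 4 with a library left out. DESeq2 called 607 transcript models, 1 of them of the 10 loci. Estimates that changed sign were CAT1 (0.00 with library totals, -0.02 with thinned counts, -0.02 with TPM), APX1 (-0.07 with library totals, 0.00 with no filter, -0.10 with TPM, and -0.10 to 0.06 with a library left out), CSD3 (-0.04 with library totals, -0.02 with voom, -0.07 with TPM, and -0.10 to 0.11), COX5B-1 (-0.04 with library totals, -0.11 with TPM, and -0.10 to 0.08), RBCS1A (-0.04 with library totals, -0.08 with TPM, and 0.00 to 0.08) and, with thinned counts, APX3 (-0.05) and GLDH (0.06). With a library left out, CSD2 ranged from -0.08 to 0.37, FSD1 from -0.45 to 0.01, ZAT10 from -0.69 to 0.02, the models APX1.1 from -0.12 to 0.13 (-0.04 with library totals), APX1.3 from -0.12 to 0.08 and FSD1.2 from -0.44 to 0.03, and the share differences in percentage points APX1.1 from -1.12 to 3.76, APX1.3 from -3.18 to 2.24 and sAPX.1 from -1.71 to 3.92. The cause was not tested. The TPM values moved the median of all genes by -0.096. The log2 ratio difference of CSD2 to FSD1 was 0.46 and ranged from -0.13 to 0.88 with a library left out. Replicate numbers did not pair the samples: same-numbered libraries correlated at -0.06, -0.09 and -0.01 in their deviations from group means, and with a replicate block 167 genes were called (122 higher, 45 lower), 0 of the 10 among them. Depth limits low genes most in ucp1 ucp3 replicate 3.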

Other observations

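The genes whose levels over the 6 libraries were most like those of CAT3 were PP2-A12, AT2G15580 and J20, out of 12472 genes whose mean reached 10 CPM. Likeness was the root mean square difference of log2 CPM after centring each gene. PP2-A12 (AT1G12710), a phloem protein family gene, had 41.6, 37.0 and 42.4 CPM in the labelled mutants and 25.0, 24.7 and 31.4 CPM in wild-type, a difference from CAT3 of 0.0657. AT2G15580 had 26.7, 22.5 and 25.3 CPM in the labelled mutants and 16.4, 14.4 and 19.8 CPM in wild-type (0.0770). J20 (AT4G13830), a J-domain co-chaperone gene of the chloroplast, had 74.7, 54.6 and 72.2 CPM in the labelled mutants and 38.3, 40.2 and 58.8 CPM in wild-type (0.0788). All 3, like CAT3, were highest within wild-type in replicate 3, and were picked for this likeness.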
